A study of Mus musculus with 2 samples.

Results

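The genes examined here were 10 components of transforming growth factor β (TGF-β) signalling, 3 ligands (Tgfb1, Tgfb2 and Tgfb3), 3 receptors (Tgfbr1, Tgfbr2 and Tgfbr3) and 4 SMADs (Smad2, Smad3, Smad4 and Smad7). They were taken by symbol, and all 10 were found among the 34285 genes of each library. The libraries were made by droplet sequencing of single cells from first mandibular molars and the tissue around them, in C57BL/6J mice at PN15.5. In Lipo-Clo, the mice had received clodronate liposomes, which kill phagocytes that take them up, injected into the peritoneum (40 μg/g) at PN3.5, again at PN6.5 and PN9.5, and last at PN12.5. In Lipo-PBS, the mice had received vehicle liposomes on the same days. Each condition was 1 library, the number of mice behind it is not given in the sources used here, and no test between conditions was possible. Intervals are 95% exact intervals that cover counting error only, and no difference between the conditions has a replicate check.

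TGF-β is secreted in a latent form and held in the extracellular matrix until it is activated. The active ligand binds a type II receptor, which phosphorylates a type I receptor, and this in turn phosphorylates SMAD2 and SMAD3, which enter the nucleus with SMAD4. In teeth the pathway is known for its part in root formation and in the differentiation of dentin-forming cells from the dental mesenchyme.

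After filters, 8254 Lipo-Clo cells with a median of 2567 UMIs (unique molecular identifiers, which count captured RNA molecules) and 8261 Lipo-PBS cells with a median of 2678 UMIs were used. They fell into 11 classes named from marker genes, of which dental mesenchyme was the largest, with 4285 Lipo-Clo and 4066 Lipo-PBS cells. Macrophage-like cells, which carried 8 of 8 macrophage markers, made up 1.65% (1.38 to 1.95) of the Lipo-Clo cells and 2.26% (1.95 to 2.61) of the Lipo-PBS cells, so macrophages were present in both. A cluster with markers of several lineages held 36 Lipo-Clo and 651 Lipo-PBS cells and was left unnamed. The libraries shared 30 cell barcodes. Levels are given as UMIs of the gene per 1000000 UMIs of a class (CPM). They are compared between cells and not between genes.

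RNA of genes typical of other classes was found in every class. It is called free RNA here, and its source was not tested. Col1a1, a collagen gene of mesenchymal cells, stood in erythroid cells at 11.3% of its mesenchymal CPM in Lipo-Clo and at 17.5% in Lipo-PBS. For the 10 TGF-β genes this proportion ran from 9.40% (Smad3) to 34.4% (Tgfb1) in Lipo-Clo and from 9.71% (Tgfbr3) to 55.7% (Smad2) in Lipo-PBS. Tgfb1, Tgfb2, Tgfb3, Tgfbr1, Smad2 and Smad4 stood above Col1a1 in both libraries. Erythroid cells are therefore given below as a comparison and are not taken to lack these genes. The part of free RNA in low levels was not tested.

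The RefSeq promoter table, on GRCm38.p6, held starts for 5 of the 10 genes (Tgfb1, Tgfb2, Tgfbr1, Tgfbr2 and Smad3). Windows are shown for Tgfb1, Tgfbr1 and Tgfbr2, which were chosen by name. The mesenchymal CPM of Tgfb1 was 1.18-fold higher in Lipo-Clo than in Lipo-PBS, under the 1.3-fold limit used below. Those of the signalling receptors Tgfbr1 and Tgfbr2 were lower, past that limit. Tgfb2, 1.22-fold lower, is not shown. A link between sequence and level was not tested. The windows are the 250 bases before the start. They lie at chr7:25686752-25687001 (plus strand), chr4:47352972-47353221 (plus strand, before the first of 2 starts listed) and chr9:116175364-116175613 (minus strand), and overlap no annotated exon. Capitals mark, on either strand, the GC box (GGGCGG), the CCAAT box (CCAAT), the TATA box (TATAAA) and the SMAD box (CAGAC), with no overlap between motifs.
Tgfb1: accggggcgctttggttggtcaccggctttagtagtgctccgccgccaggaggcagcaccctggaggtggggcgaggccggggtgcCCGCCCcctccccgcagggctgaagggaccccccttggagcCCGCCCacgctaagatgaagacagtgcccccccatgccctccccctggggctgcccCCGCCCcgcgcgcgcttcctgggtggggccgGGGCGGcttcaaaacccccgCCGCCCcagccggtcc
Tgfbr1: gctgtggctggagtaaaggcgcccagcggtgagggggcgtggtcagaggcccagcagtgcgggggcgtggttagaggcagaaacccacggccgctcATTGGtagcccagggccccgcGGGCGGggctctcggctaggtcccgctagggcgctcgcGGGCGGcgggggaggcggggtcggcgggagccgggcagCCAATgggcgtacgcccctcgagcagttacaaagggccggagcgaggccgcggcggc
Tgfbr2: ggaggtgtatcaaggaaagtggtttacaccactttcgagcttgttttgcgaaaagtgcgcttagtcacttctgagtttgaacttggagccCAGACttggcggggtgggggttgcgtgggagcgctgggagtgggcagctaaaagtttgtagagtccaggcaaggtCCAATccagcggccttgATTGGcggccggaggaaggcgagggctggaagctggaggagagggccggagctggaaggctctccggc
The Tgfb1 window held 5 GC boxes and none of the other motifs, and 75.2% of its bases were G or C. That of Tgfbr1 held 2 GC boxes and 2 CCAAT boxes (74.8% G or C), and that of Tgfbr2 held 2 CCAAT boxes and 1 SMAD box (58.4% G or C). Of the 32851 promoters in the table, 32.7% held a GC box, 33.8% a CCAAT box, 12.4% a TATA box and 42.2% a SMAD box in a window of the same length. The matches describe these letters and are not evidence of binding.

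Tgfb1, the isoform best known from immune cells and bone, was highest outside the mesenchyme when whole classes were compared. Some mesenchymal subclusters, described below, were as high as the leading classes. Its CPM in Lipo-Clo was 321 in epithelium, 256 in macrophages, 222 in endothelium, 197 in B cells, 169 in T or NK cells and 161 in dental mesenchyme. In Lipo-PBS these classes stood at 179, 215, 196, 182, 219 and 136 CPM. Over both libraries, the 5 classes above dental mesenchyme were not told apart from their neighbours in the order, from epithelium at 252 (239 to 266) CPM to B cells at 192 (172 to 214) CPM. Dental mesenchyme followed at 149 (145 to 154) CPM, apart from B cells but not from dendritic cells at 126 (108 to 146) CPM. Neutrophils (75.6 CPM), perivascular cells (60.9), glia (56.1) and erythroid cells (52.9) were lowest. Each overlapped its neighbour in this order, and neutrophils stood apart from erythroid cells.

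Since it was the largest class, dental mesenchyme still held 55.3% (53.8 to 56.8) of the Tgfb1 UMIs in Lipo-Clo and 53.7% (52.0 to 55.4) in Lipo-PBS, close to its 54.2% and 52.3% of all UMIs. Macrophages held 1.96% (1.56 to 2.42) of the Tgfb1 UMIs in Lipo-Clo and 3.32% (2.75 to 3.98) in Lipo-PBS, against 1.21% and 2.05% of all UMIs. Most Tgfb1 RNA in these libraries was therefore in cells other than macrophages, in both conditions. With cells of at least 1000 UMIs thinned to 1000 and shallower cells left out, 26.1% of the macrophages in Lipo-Clo and 19.4% in Lipo-PBS had a Tgfb1 UMI. Before thinning, 39.7% and 40.6% of all macrophages had one, at medians of 1919.5 and 2473 UMIs. For erythroid cells the shares were 4.19% and 2.94% after thinning (18.3% and 13.5% of all erythroid cells before, at medians of 3582 and 3302.5 UMIs).

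Tgfb2 and Tgfb3, the isoforms known from organ development, were highest in perivascular cells and dental mesenchyme when whole classes were compared. A mesenchymal subcluster led by Ctnnd2 was higher in both, and a Cxcl14-led epithelial cluster was higher in Tgfb2, as described below. Perivascular cells, the pericytes and smooth muscle cells around vessels, had Tgfb2 at 167 CPM in Lipo-Clo against 166 CPM in Lipo-PBS, and dental mesenchyme had 93.9 and 114 CPM. Over both libraries these classes stood apart from each other and from endothelium, with intervals of 149 to 185, 99.9 to 107 and 54.4 to 77.7 CPM. For Tgfb3, perivascular cells had 104 and 114 CPM and dental mesenchyme 105 and 109 CPM, and the intervals overlapped. All other classes had between 12.3 and 35.5 CPM of Tgfb3 over both libraries.

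Neither Tgfb2 nor Tgfb3 was seen in macrophages above the level in erythroid cells. Macrophages had Tgfb2 at 9.24 CPM in Lipo-Clo against 17.0 CPM in Lipo-PBS, from 3 and 9 UMIs, and erythroid cells had it at 15.2 and 20.8 CPM. Tgfb3 was at 18.5 and 18.9 CPM in macrophages and 19.8 and 20.8 CPM in erythroid cells. Dental mesenchyme held 76.5% of the Tgfb2 UMIs in Lipo-Clo and 64.5% in Lipo-PBS, and 83.8% and 73.0% of the Tgfb3 UMIs. The unnamed multi-lineage cluster, with more cells in Lipo-PBS, was counted in the total and not in the mesenchyme.

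**Figure D1:**
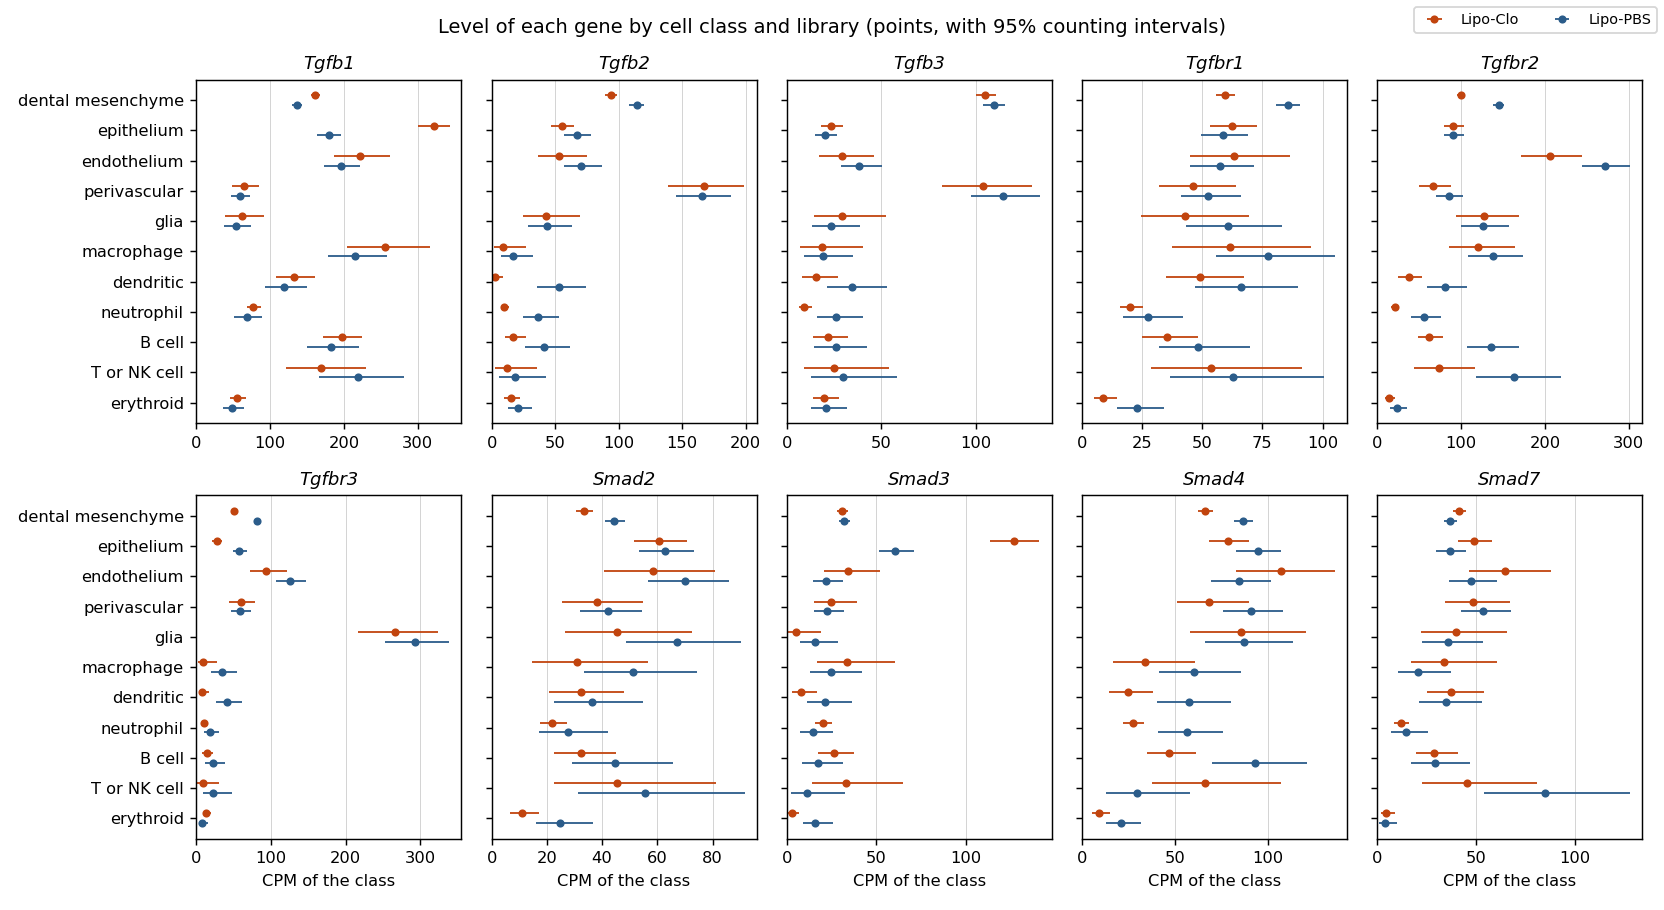
Level of each gene (CPM, horizontal axis) in 11 cell classes (vertical axis) in Lipo-Clo and Lipo-PBS, with 1 point per library and bars for the 95% counting intervals. Tgfb1 was high in several classes, epithelium, macrophages and endothelium among them, and lowest in neutrophils, perivascular cells, glia and erythroid cells. Tgfb2 and Tgfb3 were highest in perivascular cells and dental mesenchyme, Tgfbr2 in endothelium, Tgfbr3 in glia and Smad3 in epithelium.

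The receptors differed from each other in the class where they were highest. Some mesenchymal subclusters, described below, were near these classes. In Lipo-Clo and Lipo-PBS, a subcluster with Mfap5 had Tgfbr2 at 215 and 279.6 CPM, and one with Gdf10 had Tgfbr3 at 199 and 272 CPM. Tgfbr2, the type II receptor, was highest in endothelium, at 206 CPM in Lipo-Clo against 272 CPM in Lipo-PBS. Below endothelium, macrophages (120.2 and 138 CPM), glia (128 and 126 CPM), dental mesenchyme (99.9 and 145 CPM) and T or NK cells (74.2 and 163 CPM) were not told apart over both libraries. Neutrophils at 27.4 CPM and erythroid cells at 17.6 CPM came last, apart from the classes above them.

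Tgfbr3 (betaglycan), the co-receptor that presents TGF-β2 to the signalling receptors, was highest in glia, at 267 CPM (217 to 324) in Lipo-Clo against 293 CPM (253 to 338) in Lipo-PBS. Glia held 9.04% of the Tgfbr3 UMIs in Lipo-Clo against 9.47% in Lipo-PBS, with 1.40% and 2.48% of all UMIs. Endothelium (93.9 and 126 CPM) and dental mesenchyme (49.9 and 81.7 CPM) followed, each apart from the class above it over both libraries. Among glia of at least 1000 UMIs, thinned to that depth, 20.8% and 23.2% had a Tgfbr3 UMI. Before thinning the shares were 36.5% and 37.1% of all glia, at medians of 1631 and 2007 UMIs, against 5.38% and 3.08% of the deeper erythroid cells.

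Tgfbr1, the type I receptor kinase, varied less over the classes. Over both libraries its order began with dental mesenchyme at 72.2 CPM, macrophages at 71.4 and epithelium at 60.6, and the first gap between neighbours lay between B cells (39.7 CPM, 30.7 to 50.4) and neutrophils (21.3 CPM, 17.2 to 26.2). Cells with UMIs of both Tgfbr1 and Tgfbr2 made up 5.60% (4.93 to 6.33) of the dental mesenchyme in Lipo-Clo and 8.02% (7.20 to 8.90) in Lipo-PBS, at medians of 2844 and 2970 UMIs. The same shares of erythroid cells were 0.489% and 1.15%. A cell without a UMI may still express a gene at this depth.

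Of the SMADs, Smad3 was the one with a single leading class. Smad3, which binds DNA directly once a receptor has activated it, stood in epithelium at 127 CPM in Lipo-Clo against 60.6 CPM in Lipo-PBS, and in dental mesenchyme at 31.0 and 32.0 CPM. Epithelium held 34.9% (31.8 to 37.9) of the Smad3 UMIs in Lipo-Clo against 19.1% (16.5 to 22.1) in Lipo-PBS, with 9.90% and 9.71% of all UMIs. Not all epithelium was high, with 189 and 121 CPM in a cluster with enamel genes but 23.6 and 27.4 CPM in one with keratin genes. A mesenchymal subcluster led by Ctnnd2, described below, had Smad3 at 133 and 137 CPM. Smad2, the other SMAD activated by these receptors, ranged from 66.3 CPM in endothelium to 16.2 CPM in erythroid cells over both libraries, with no gap between neighbours. Smad4, the partner that is shared with bone morphogenetic protein signalling, ranged from 91.5 to 13.6 CPM between the same classes, and only erythroid cells stood apart. Smad7, an inhibitory SMAD that is itself a target of the pathway, ranged from 66.3 CPM in T or NK cells to 4.41 CPM in erythroid cells, and neutrophils and erythroid cells stood apart.

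The genes whose pattern was most like each ligand or receptor were found by Pearson's r over 22 profiles of log2(CPM + 10), 11 classes in each of 2 libraries, among 9306 genes. The profiles share libraries, depth and free RNA, so r is a description. Tgfb2 was followed most closely by Cpe (r = 0.94), Arhgap42 (0.93) and Lhfpl6 (0.93), all highest in perivascular cells. For Tgfb3 the nearest were Adamts2 (0.95), Fbn2 (0.94) and Ddr2 (0.94). Tgfbr2 was most like Rasa1 (0.94), Zdhhc20 (0.92) and Slc17a5 (0.91), all highest in endothelium, and Tgfbr3 was most like Gulp1 (0.95), Lamb1 (0.95) and Cilk1 (0.94), all highest in glia. Pdia4 (0.91) and Pdia3 (0.90) were nearest to Tgfbr1. The nearest to Tgfb1 reached lower values of r, with Med10 at 0.83, Gm56878 at 0.82 and Mknk2 at 0.82.

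Dental mesenchyme was clustered again into 14 subclusters, of which 12 are described, named from their markers where these allowed it. They are called here by 1 of their leading genes, and some of these genes lead more than 1 subcluster, Mmp13 3 of them. They were fibroblast-like cells with Mfap5 or with Gdf10, dental follicle-like cells with Dio2 or with Ibsp, periodontal ligament-like cells with Chodl or with Tnn, pulp or papilla-like cells with Lrrc4c or with Ctnnd2, osteoblast or cementoblast-like, odontoblast-like and dividing cells, and an unnamed subcluster with Mmp13. The others were 70 dividing cells with papilla genes and 26 cells led by B cell genes. The Ibsp subcluster was named from 3 follicle markers, the minimum. It also passed 2 osteoblast or cementoblast, 2 odontoblast and 2 periodontal ligament markers, so its name is less settled. None of the 10 genes was among the variable genes used for clustering.

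Taken over both libraries, Tgfb1 was highest in the Tnn periodontal ligament-like and odontoblast-like cells and lowest in fibroblast-like cells. Over both libraries it stood at 259 (243 to 277) CPM in the Tnn periodontal ligament-like cells, 242 (216 to 271) in odontoblast-like cells, 216 (198 to 236) in the Ibsp follicle-like cells and 208 (188 to 229.5) in osteoblast or cementoblast-like cells, where neighbours overlapped. The Chodl periodontal ligament-like cells were lower, at 148 (133 to 164) CPM. The Lrrc4c pulp or papilla-like cells had 60.3 (51.1 to 70.5) CPM, and the fibroblast-like cells with Mfap5 and with Gdf10 had 41.8 (35.1 to 49.4) and 38.3 (26.0 to 54.3) CPM. The lowest 3 subclusters thus stood apart from the rest, in which the unnamed Mmp13 subcluster was next at 108 (96.1 to 122) CPM. In Lipo-PBS alone, odontoblast-like cells (219.9 CPM) lay below osteoblast or cementoblast-like cells (225.9 CPM). The odontoblast-like subcluster also passed 3 epithelial markers, and the part of epithelial RNA in its values was not tested.

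Tgfb2 and Tgfb3 were both highest in the Ctnnd2 pulp or papilla-like cells. Tgfb2 had 258 (228 to 291) CPM there and 159 (144 to 175) CPM in the Lrrc4c pulp or papilla-like cells, each apart from the next in the order. Tgfb3 had 252 (222 to 285) CPM in the Ctnnd2 cells, ahead of the Chodl (159 CPM, 143 to 175) and Tnn (135 CPM, 123 to 147) periodontal ligament-like cells. Both were lowest in osteoblast or cementoblast-like cells, at 25.6 (19.0 to 33.8) and 39.5 (31.2 to 49.4) CPM, apart from all other subclusters. Osteoblast or cementoblast-like cells were thus among the highest for Tgfb1 and lowest for the other ligands. Smad3 was also highest in the Ctnnd2 cells, at 135 (113 to 159) CPM, and lay between 12.4 and 45.7 CPM elsewhere. The Ctnnd2 cells had the lowest depth of the 12 subclusters, with a median of 1321 UMIs. Beside 6 pulp or papilla markers they passed 2 perivascular and 2 osteoblast or cementoblast markers. The part of depth and of other cells in these levels was not tested.

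Tgfbr2 and Tgfbr3 were highest in other subclusters than Tgfb1. Tgfbr2 stood at 258 (241 to 276) CPM in the Mfap5 fibroblast-like cells, 220.0 (205 to 236) in the Dio2 follicle-like cells and 191 (174 to 209) in the Chodl periodontal ligament-like cells. The 6 lowest subclusters, from the Ibsp follicle-like cells at 68.7 (58.7 to 79.9) CPM to odontoblast-like cells at 50.6 (39.1 to 64.4) CPM, overlapped, and among them were the Tnn cells at 60.2 (52.3 to 68.9) CPM and the Lrrc4c cells at 61.8 (52.6 to 72.2) CPM. Tgfbr3 was highest in the fibroblast-like cells, at 242 (209 to 278) CPM with Gdf10 and 203 (188 to 219) CPM with Mfap5, and lowest in odontoblast-like cells (16.1 CPM, 9.97 to 24.6) and the Tnn cells (16.0 CPM, 12.1 to 20.7). The Tnn and odontoblast-like cells, highest in Tgfb1 over both libraries, had the lowest Tgfbr3 in each library. For Tgfbr2 this held only over both libraries together, since in Lipo-Clo the Mmp13 subcluster (52.7 CPM) and dividing cells (53.3 CPM) lay just below them (55.0 and 56.1 CPM), and in Lipo-PBS the Lrrc4c cells (60.4 CPM) lay below the Tnn cells (65.4 CPM), all within counting error. Tgfbr1 ranged from 117 (104 to 131) CPM in the Chodl cells to 42.9 (32.4 to 55.8) CPM in odontoblast-like cells, with no gap between neighbours. Smad2 ranged from 47.2 to 23.0 CPM, Smad4 from 98.4 to 53.7 CPM and Smad7 from 65.1 to 22.2 CPM, also without a gap.

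**Figure D2:**
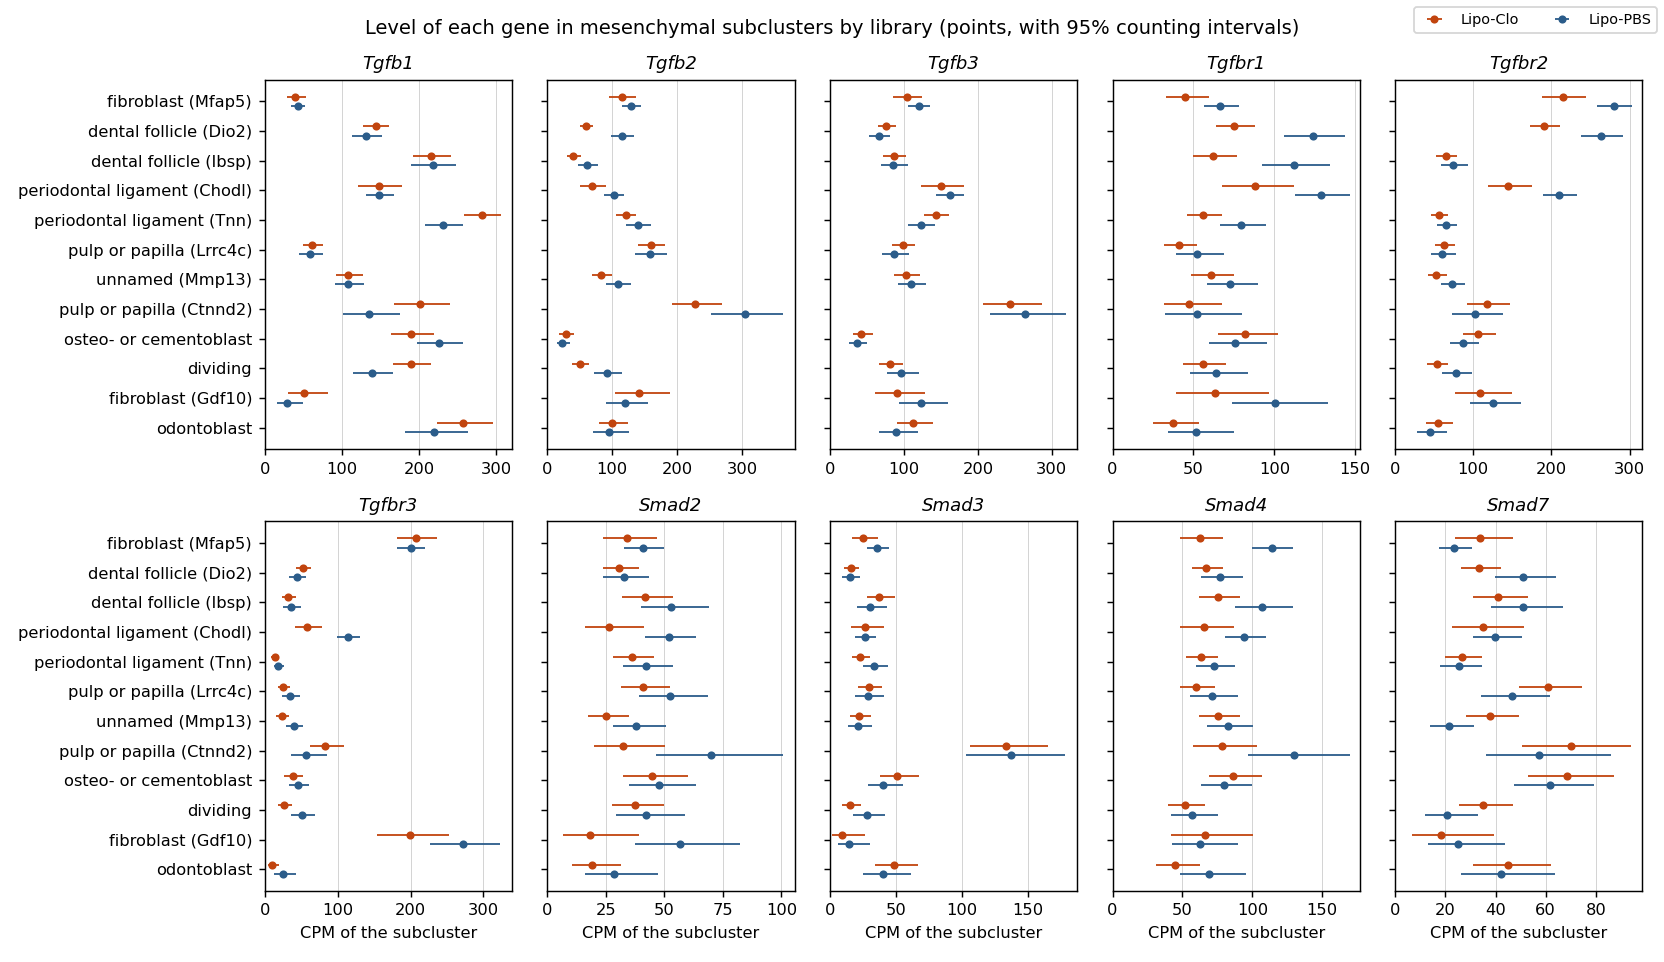
Level of each gene (CPM, horizontal axis) in 12 subclusters of dental mesenchyme (vertical axis, with a leading gene in brackets) in Lipo-Clo and Lipo-PBS, with 1 point per library and bars for the 95% counting intervals. Tgfb1 was low, and Tgfbr2 and Tgfbr3 were high, in the Mfap5 fibroblast-like cells, and Tgfb2, Tgfb3 and Smad3 were highest in the Ctnnd2 pulp or papilla-like cells.

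Between the conditions, dental mesenchyme of Lipo-Clo had lower CPM of all 3 receptors and of Smad2 and Smad4, and a slightly higher CPM of Tgfb1. A gene was counted where its CPM differed by at least 1.3-fold, among genes with at least 100 UMIs over both libraries, and all 10 genes passed this filter. Of the 10, 5 were lower in Lipo-Clo past the limit, beside 14.8% of 11733 genes, and 0 were higher, beside 10% of those genes. The median log2 ratio of Lipo-Clo over Lipo-PBS was -0.33 over the 10 genes and -0.02 over all genes. With both libraries at the same mixture of mesenchymal subclusters, 2 genes were lower past the limit, Tgfbr1 and Smad2. The share of all genes past the limit at that mixture was not computed.

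Tgfbr1 had 59.6 CPM (55.7 to 63.7) in Lipo-Clo against 85.7 CPM (80.9 to 90.8) in Lipo-PBS, for a log2 ratio of -0.52 (-0.65 to -0.40). Tgfbr2 had 99.9 CPM (94.8 to 105) in Lipo-Clo against 145 CPM (139 to 152) in Lipo-PBS, for a log2 ratio of -0.54 (-0.64 to -0.44). Tgfbr3 had 49.9 CPM (46.3 to 53.7) in Lipo-Clo against 81.7 CPM (76.9 to 86.6) in Lipo-PBS, for a log2 ratio of -0.71 (-0.85 to -0.57). For each receptor the intervals of the libraries were apart. When both libraries were weighted to the same mixture of subclusters, the log2 ratio was -0.48 for Tgfbr1, -0.31 for Tgfbr2 and -0.23 for Tgfbr3, so Tgfbr2 and Tgfbr3 then differed by under 1.3-fold. The Mfap5 fibroblast-like cells, high in Tgfbr2 and Tgfbr3, supplied 7.48% of the mesenchymal UMIs in Lipo-Clo and 16.2% in Lipo-PBS. There were 242 Chodl periodontal ligament-like cells in Lipo-Clo but 566 in Lipo-PBS.

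Smad2 had 33.6 CPM (30.7 to 36.7) in Lipo-Clo against 44.5 CPM (41.0 to 48.2) in Lipo-PBS, for a log2 ratio of -0.40 (-0.58 to -0.23). Smad4 had 66.3 CPM (62.2 to 70.7) in Lipo-Clo against 86.8 CPM (81.9 to 91.9) in Lipo-PBS, for a log2 ratio of -0.39 (-0.51 to -0.26). Both lay just past the limit, at 1.32-fold and 1.31-fold, and with the same mixture of subclusters their log2 ratios were -0.41 and -0.35, of which that of Smad4 was within it. Smad4 also came within the limit with edgeR's TMM scaling, at -0.37. Over all settings tried, the log2 ratio of Smad2 ran from -0.45 to -0.31, so Smad2 too came within the limit with some of them. Smad3 (31.0 and 32.0 CPM) had a log2 ratio of -0.05 (-0.24 to 0.15). Smad7 (41.7 and 37.0 CPM) had one of 0.17, with an interval that reached 0.

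Among the ligands, Tgfb1 had 161 CPM (155 to 168) in Lipo-Clo against 136 CPM (130.1 to 143) in Lipo-PBS, for a log2 ratio of 0.24 (0.15 to 0.33), which was 0.13 with the same mixture of subclusters. Tgfb2 had 93.9 CPM (89.0 to 99.0) in Lipo-Clo against 114 CPM (109 to 120.0) in Lipo-PBS, for a log2 ratio of -0.28 (-0.39 to -0.18), and -0.31 with the same mixture. Both differences exceeded counting error and were smaller than 1.3-fold, in opposite directions. Tgfb3 (105 and 109 CPM) had a log2 ratio of -0.06 (-0.16 to 0.04), which included 0.

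**Figure D3:**
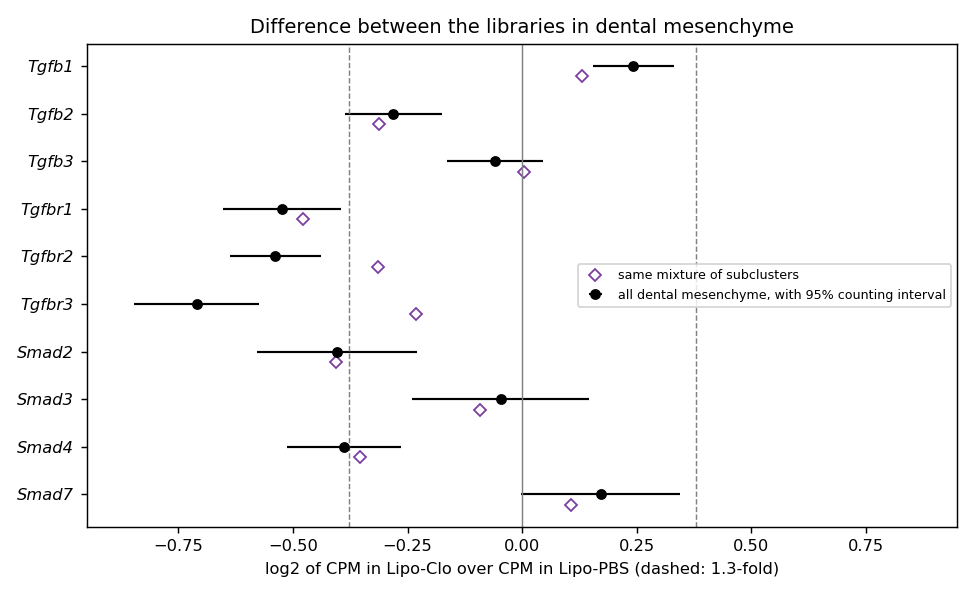
The log2 ratio of CPM in Lipo-Clo over CPM in Lipo-PBS (horizontal axis) for each gene (vertical axis) in dental mesenchyme. Filled points with 95% counting intervals are all mesenchymal cells, open diamonds are both libraries at the same mixture of subclusters, and dashed lines mark 1.3-fold. The receptors lie between -0.71 and -0.52, and the diamonds of Tgfbr2 and Tgfbr3 lie nearer to 0, at -0.31 and -0.23.

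The libraries also differed in free RNA and in mitochondrial UMIs. The 6 erythroid markers summed to 22074 CPM in the dental mesenchyme of Lipo-Clo and 52384 CPM in that of Lipo-PBS, and mitochondrial UMIs were 0.370% and 1.73% of all UMIs. The 8 neutrophil markers went the other way in dental mesenchyme, at 629 CPM in Lipo-Clo against 146 CPM in Lipo-PBS. With mitochondrial, haemoglobin and ribosomal protein genes left out of the totals, the log2 ratios in mesenchyme were -0.55 for Tgfbr1, -0.57 for Tgfbr2, -0.74 for Tgfbr3 and 0.22 for Tgfb1. The 8 macrophage markers summed to 17.5 and 20.9 CPM in dental mesenchyme, against 12201 and 10000 CPM in macrophages. No marker of these lists was at 0 in dental mesenchyme. In erythroid cells, the comparison for free RNA, Tgfbr1 was also lower, at 8.75 CPM in Lipo-Clo against 22.8 CPM in Lipo-PBS. Its log2 ratio there was -1.38 (-2.43 to -0.38). Smad2 (11.1 and 24.8 CPM) and Smad4 (9.33 and 20.8 CPM) were lower there too, at -1.16 (-2.10 to -0.24) and -1.16 (-2.19 to -0.15). The erythroid log2 ratios of Tgfbr2 (-0.77) and Tgfbr3 (0.76) had intervals that included 0, and all these counts were below 100 UMIs. The part of free RNA in the ratios was otherwise not tested.

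Within the 12 subclusters, Tgfbr1 was the receptor with the steadiest direction. It was lower in Lipo-Clo in 11 subclusters and higher in 1, with 5 intervals wholly below 0 and 0 above. The 5 were both follicle-like, both periodontal ligament-like and the Mfap5 fibroblast-like subclusters. In the Dio2 follicle-like cells Tgfbr1 had 75.2 CPM in Lipo-Clo against 124 CPM in Lipo-PBS, for a log2 ratio of -0.72 (-1.04 to -0.40). In the Ibsp follicle-like cells it had 62.3 CPM in Lipo-Clo against 112 CPM in Lipo-PBS, for a log2 ratio of -0.84 (-1.26 to -0.43). Osteoblast or cementoblast-like cells were the exception, with a log2 ratio of 0.11 (-0.36 to 0.59).

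Tgfbr2 was lower in Lipo-Clo in 8 subclusters and higher in 4, with 5 intervals below 0. These included the subclusters where Tgfbr2 was highest, the Mfap5 fibroblast-like cells among them, with 215 CPM in Lipo-Clo against 279.6 CPM in Lipo-PBS, for a log2 ratio of -0.38 (-0.60 to -0.16). The Dio2 follicle-like cells had 191 CPM in Lipo-Clo against 263 CPM in Lipo-PBS, for a log2 ratio of -0.46 (-0.67 to -0.26), and the Chodl periodontal ligament-like cells had one of -0.54 (-0.87 to -0.22). In the Mfap5 fibroblast-like cells, where Tgfbr3 was high, it had 208 CPM in Lipo-Clo against 200.1 CPM in Lipo-PBS, for a log2 ratio of 0.05 (-0.19 to 0.29), and in the Gdf10 fibroblast-like cells the log2 ratio was -0.45 (-0.90 to -0.01). By contrast, in the Chodl cells it had 58.5 CPM in Lipo-Clo against 114 CPM in Lipo-PBS, for a log2 ratio of -0.96 (-1.48 to -0.48). Over the 12 subclusters, Tgfbr3 was lower in 9 with 4 intervals below 0.

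Of the ligands, Tgfb2 was lower in Lipo-Clo in 8 of 12 subclusters, with 6 intervals below 0 and 0 above. The Dio2 follicle-like cells had 59.6 CPM in Lipo-Clo against 115 CPM in Lipo-PBS, for a log2 ratio of -0.95 (-1.29 to -0.60), and dividing cells had a log2 ratio of -0.87 (-1.38 to -0.37). Tgfb1 was higher in 7 subclusters and lower in 5, with 3 intervals above 0, in the Tnn periodontal ligament-like cells at 0.28 (0.09 to 0.48), the Ctnnd2 pulp or papilla-like cells at 0.58 (0.11 to 1.07) and dividing cells at 0.45 (0.12 to 0.79). Tgfb3 was higher in 6 and lower in 6, and all its intervals included 0.

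Smad2 was lower in Lipo-Clo in all 12 subclusters, with 3 intervals below 0, and Smad4 was lower in 10, with 4 intervals below 0. In the Mfap5 fibroblast-like cells Smad4 had 62.5 CPM in Lipo-Clo against 114 CPM in Lipo-PBS, for a log2 ratio of -0.86 (-1.27 to -0.47). Smad3, with at least 20 UMIs in 11 subclusters, was higher in 7 and lower in 4, and all intervals included 0. For Smad7, also in 11 subclusters, 1 interval lay above and 1 below 0.

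**Figure D4:**
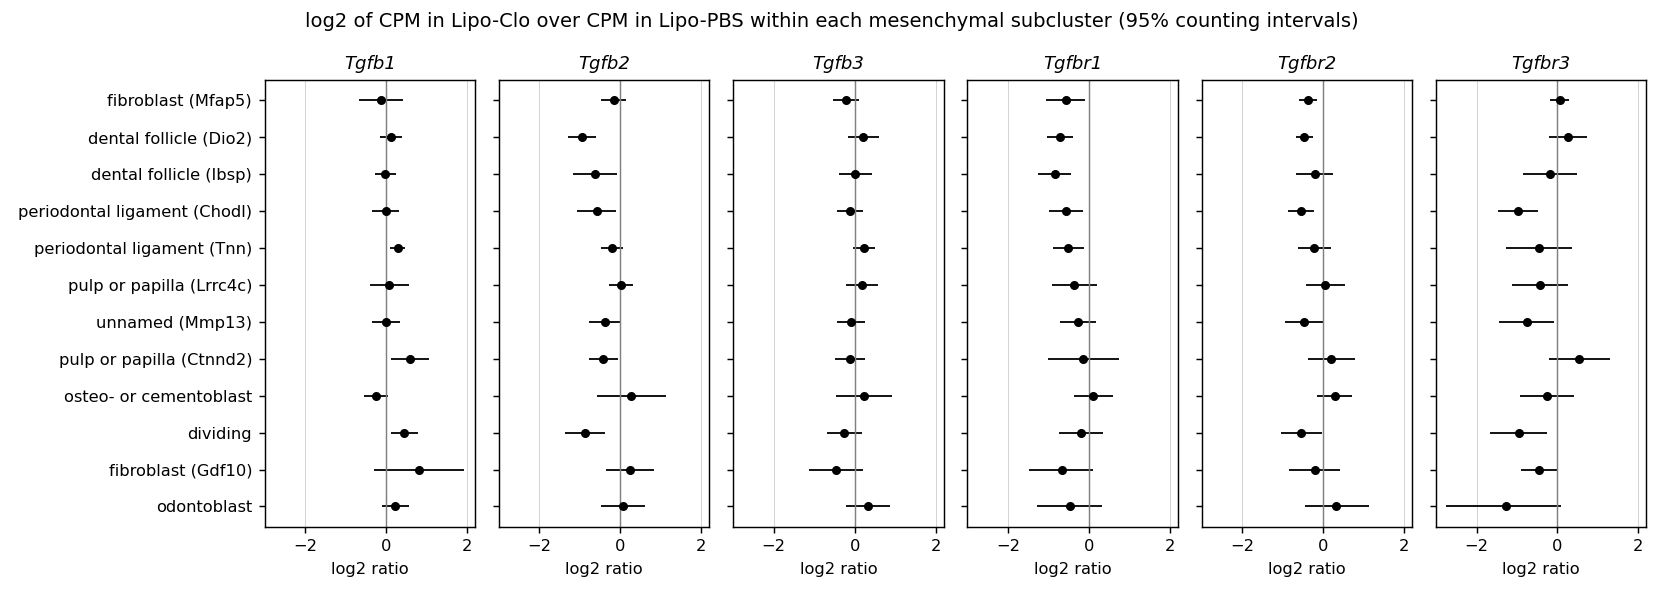
The log2 ratio of CPM in Lipo-Clo over CPM in Lipo-PBS (horizontal axis) of the ligands and receptors within 12 subclusters of dental mesenchyme (vertical axis), with 95% counting intervals. Tgfbr1 lies below 0 in 11 of 12 subclusters, and Tgfb3 lies on both sides of 0 with all intervals across it.

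The wider pathway was read from 4 lists. Among receptors of the wider family, co-receptors and their regulators, 11 of 13 genes passed the filter, 1 was higher and 4 were lower in Lipo-Clo mesenchyme, beside 10% higher and 14.8% lower of the 11733 genes, with a median log2 ratio of -0.23 beside -0.02 over all genes. The higher gene was Bambi (387 and 228 CPM, log2 ratio 0.76), a decoy receptor that lacks the kinase domain. The lower ones were Acvr2a (13.8 and 26.8 CPM, log2 ratio -0.96), an activin receptor, Itgb1 (539 and 919 CPM, log2 ratio -0.77), an integrin subunit, Dab2 (55.3 and 83.1 CPM, log2 ratio -0.59), an endocytic adaptor, and Zfyve9 (34.4 and 48.2 CPM, log2 ratio -0.48), which presents SMADs to the receptor. Among SMAD partners and inhibitors, 20 of 21 passed, 1 was higher and 6 were lower, with a median of -0.23, beside the same shares of all genes. Stub1, a ubiquitin ligase, was higher, at a log2 ratio of 0.44. The 5 farthest lower genes were Nedd4l (17.5 and 28.6 CPM, log2 ratio -0.71), Pmepa1 (179 and 261 CPM, log2 ratio -0.55), Smurf2 (72.7 and 106 CPM, log2 ratio -0.54), Rnf111 (19.2 and 27.1 CPM, log2 ratio -0.49) and Usp9x (112 and 157 CPM, log2 ratio -0.49), of which Nedd4l, Smurf2 and Rnf111 are ubiquitin ligases that act on SMADs or their partners.

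Genes that store or activate latent TGF-β were lower more often than higher. Of 17 listed, 15 passed, 7 were lower, beside 14.8% of all genes, and 0 higher, beside 10%, in Lipo-Clo, with a median log2 ratio of -0.34 beside -0.02. The 5 farthest were Ltbp2 (8.52 and 15.1 CPM, log2 ratio -0.82), Dcn (836 and 1445 CPM, log2 ratio -0.79), Itgb8 (5.71 and 9.47 CPM, log2 ratio -0.73), Fbn1 (253 and 413 CPM, log2 ratio -0.71) and Lrrc32 (4.81 and 7.03 CPM, log2 ratio -0.55). Dcn encodes decorin, a proteoglycan that binds TGF-β, Fbn1 encodes fibrillin-1, which anchors the latent complex, Itgb8 is a subunit of an activating integrin, and Lrrc32 tethers latent TGF-β to the cell surface. Among genes known to be raised by TGF-β in mesenchymal cells, 23 of 24 passed, 0 were higher, beside 10% of all genes, and 9 were lower, beside 14.8%, with a median of -0.16 beside -0.02. Among the farthest were Ccn2 (56.2 and 145 CPM, log2 ratio -1.37), Ltbp2, Bhlhe40 (42.8 and 64.8 CPM, log2 ratio -0.60) and Fn1 (444 and 667 CPM, log2 ratio -0.59). The other 14 genes of this list that passed were within 1.3-fold, among them the collagen gene Col1a1, which stood at 38228 and 34496 CPM. Some genes, such as Pmepa1 and Ltbp2, stand in 2 of the lists. These values were not weighted to the same mixture of subclusters.

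In epithelium, the CPM of Tgfb1 and Smad3 was higher and that of Tgfbr3 lower in Lipo-Clo. All 10 genes passed the filter, 3 were higher past 1.3-fold, beside 14.4% of 6775 genes, and 1 was lower, beside 17.2%. The median log2 ratio was 0.05 over the 10 genes and -0.03 over all genes. Tgfb1 had 321 CPM (300.1 to 344) in Lipo-Clo against 179 CPM (163 to 196) in Lipo-PBS, for a log2 ratio of 0.84 (0.68 to 1.01). Smad3 had 127 CPM (114 to 141) in Lipo-Clo against 60.6 CPM (51.3 to 71.0) in Lipo-PBS, for a log2 ratio of 1.06 (0.78 to 1.35). The third higher gene, Smad7, had 48.9 and 36.7 CPM and a log2 ratio of 0.42 (0.02 to 0.82). Tgfbr3 had 27.1 CPM (21.2 to 34.1) in Lipo-Clo against 57.4 CPM (48.4 to 67.6) in Lipo-PBS, for a log2 ratio of -1.08 (-1.51 to -0.67).

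The makeup of the epithelium differed between the libraries along with these values. A cluster with the enamel genes Ambn, Amtn and Odam, which are made by ameloblasts, supplied 62.0% of the epithelial UMIs in Lipo-Clo and 35.5% in Lipo-PBS. Another cluster, with keratin genes (Krt13, Krt14), supplied 31.9% and 55.3%. Tgfb1 and Smad3 were high in the enamel gene cluster and Tgfbr3 in the keratin cluster. Within the enamel gene cluster, Tgfb1 had 468 CPM in Lipo-Clo against 361 CPM in Lipo-PBS, for a log2 ratio of 0.38 (0.19 to 0.57), and Smad3 had 189 and 121 CPM, for a log2 ratio of 0.64 (0.32 to 0.97). Both differences were smaller there than in all epithelium, and both intervals lay above 0.

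In the keratin cluster, Tgfb1 had 83.6 and 70.0 CPM, for a log2 ratio of 0.26 (-0.21 to 0.71), and Smad3 had 23.6 and 27.4 CPM, for a log2 ratio of -0.22 (-1.08 to 0.60), so neither differed beyond counting error. Tgfbr3 had 51.8 and 85.8 CPM there, for a log2 ratio of -0.73 (-1.26 to -0.22). In the enamel gene cluster Tgfbr3 had 15.2 and 22.5 CPM and Smad7 had 60.7 and 48.3 CPM, with log2 ratios of -0.57 (-1.47 to 0.36) and 0.33 (-0.20 to 0.88) that included 0. A small Cxcl14-led cluster, with 60 Lipo-Clo and 73 Lipo-PBS cells, was where epithelial Tgfb2 was highest, at 272 and 301 CPM.

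**Figure D5:**
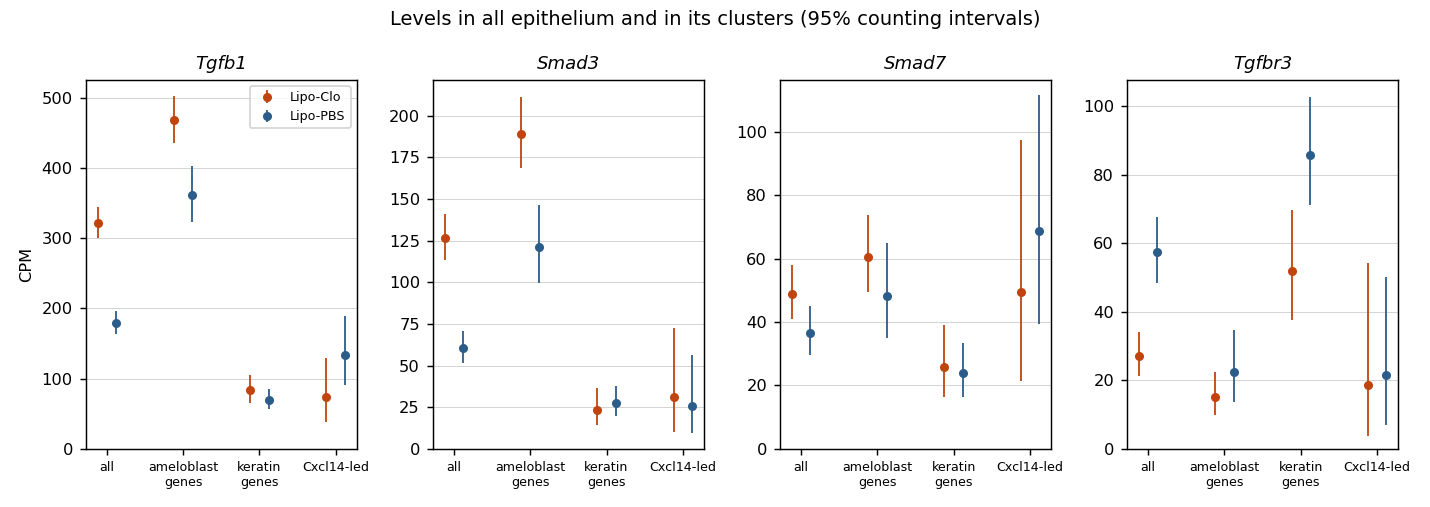
Level (CPM, vertical axis) of the 4 genes past 1.3-fold in epithelium, in all epithelium and in its 3 clusters (horizontal axis) in Lipo-Clo and Lipo-PBS, with 95% counting intervals. Tgfb1 and Smad3 were highest in the cluster with ameloblast genes and Tgfbr3 in the cluster with keratin genes, in both libraries.

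In endothelium, 8 of 10 genes passed the filter (all but Tgfb3 and Smad3). Of these, 1 was higher past 1.3-fold in Lipo-Clo, beside 17.4% of 3663 genes, and 3 were lower, beside 13.3%. Tgfbr2, for which endothelium was the highest class, had 206 CPM (171 to 245) in Lipo-Clo against 272 CPM (244 to 301) in Lipo-PBS, for a log2 ratio of -0.40 (-0.71 to -0.11). With every deposited cell kept, the log2 ratio was -0.18 (-0.43 to 0.08). The others were Smad7 at a log2 ratio of 0.45 (-0.16 to 1.04), Tgfb2 at -0.40 (-1.02 to 0.18) and Tgfbr3 at -0.42 (-0.88 to 0.02), all with intervals that included 0. A cluster with lymphatic genes (Ccl21a, Lyve1, Prox1) held 30 Lipo-Clo and 150 Lipo-PBS cells and supplied 16.5% of the endothelial UMIs in Lipo-Clo and 56.8% in Lipo-PBS. Tgfbr2 stood there at 294 and 296 CPM, for a log2 ratio of -0.01 (-0.61 to 0.55). In the remaining blood vessel cells Tgfbr2 had 188 and 240.2 CPM, for a log2 ratio of -0.35 (-0.74 to 0.03), which included 0, and Smad7 had a log2 ratio of -0.24, opposite in sign to that of the whole class.

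In perivascular cells, where Tgfb2 and Tgfb3 were high, neither differed beyond counting error. Of the 8 genes that passed (all but Smad2 and Smad3), 0 were higher past 1.3-fold, beside 16.6% of 3519 genes, and 1 was lower, beside 11.1%. Tgfb2 had 167 and 166 CPM, for a log2 ratio of 0.01 (-0.32 to 0.33), and Tgfb3 had 104 and 114 CPM, for a log2 ratio of -0.14 (-0.55 to 0.26). Smad4, the lower gene, had 68.4 and 91.0 CPM, for a log2 ratio of -0.41 (-0.91 to 0.07). Glia, the class highest in Tgfbr3, had a log2 ratio of -0.14 (-0.50 to 0.22) for it.

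The macrophages that remained in Lipo-Clo were too few to separate most values. Their Tgfb1 had 256 CPM (204 to 317) in Lipo-Clo against 215 CPM (178 to 259) in Lipo-PBS, for a log2 ratio of 0.25 (-0.18 to 0.67). For Tgfbr2, at 120.2 and 138 CPM, the log2 ratio was -0.20 (-0.80 to 0.38), and for Tgfbr1, at 61.6 and 77.5 CPM, it was -0.33 (-1.18 to 0.47). A difference of the size seen for Tgfb1 in mesenchyme was not detectable at this depth in macrophages.

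Among other immune cells, neutrophils and B cells had lower Tgfbr2 in Lipo-Clo, as did T or NK and dendritic cells from fewer UMIs. The share of all genes past 1.3-fold is not given for these classes. The median log2 ratio over all genes was -0.11 in neutrophils and 0.08 in B cells. Neutrophils had 21.1 and 56.4 CPM, for a log2 ratio of -1.41 (-1.97 to -0.84), B cells had 62.3 and 136 CPM, for a log2 ratio of -1.13 (-1.61 to -0.64), and T or NK cells had 74.2 and 163 CPM, for a log2 ratio of -1.13 (-2.01 to -0.31). The last rests on 18 and 44 UMIs, below the minimum of 100, and the 4 mast cell markers in T or NK cells summed to 2903 CPM in Lipo-Clo against 178 CPM in Lipo-PBS, beside 4020 and 3711 CPM for the 8 T or NK cell markers. B cells fell into a cluster led by Igll1, a gene of B cell precursors, and a cluster led by Igkc. The Igll1 cluster supplied 52.4% of the B cell UMIs in Lipo-Clo and 33.9% in Lipo-PBS. Vpreb3, another precursor gene, was among the leading genes of both. Tgfbr2 had 39.6 and 137 CPM in the Igll1 cluster, for a log2 ratio of -1.79 (-2.66 to -0.94). It had 87.2 and 135 CPM in the Igkc cluster, for one of -0.63 (-1.24 to -0.03). Neutrophils likewise held a cluster led by Prtn3 and Elane, genes of their precursors, with 46.7% of the neutrophil UMIs in Lipo-Clo and 31.1% in Lipo-PBS, and the log2 ratio was -1.88 (-3.05 to -0.61) in it and -1.08 (-1.73 to -0.42) in the other neutrophils. Smad4 was lower in neutrophils and B cells too, at -1.04 (-1.58 to -0.49) and -0.99 (-1.56 to -0.41). Free RNA moved in the same direction in neutrophils, with Col1a1 at 3873 CPM in Lipo-Clo against 8444 CPM in Lipo-PBS, and Hbb-bs, a haemoglobin gene, at 9696 and 36898 CPM. B cells had Col1a1 at 6571 and 11400 CPM and Hbb-bs at 42018 and 76460 CPM. In T or NK cells Col1a1 went the other way, at 10023 and 8678 CPM, while Hbb-bs was at 19279 and 61501 CPM. In neutrophils the 4 mast cell markers summed to 12.7 CPM in Lipo-Clo against 273 CPM in Lipo-PBS, and the 5 monocyte markers to 2435 and 1606 CPM. The 8 neutrophil markers summed to 229469 and 193380 CPM there. Tgfb2 in neutrophils was at 10.1 and 36.7 CPM. In dendritic cells Tgfbr2 had 37.5 and 80.8 CPM, for a log2 ratio of -1.11 (-1.82 to -0.41), from 29 and 49 UMIs. Smad4 had a log2 ratio of -1.23 (-2.12 to -0.38) in dendritic cells, also below the minimum of 100 UMIs. Tgfb2 in dendritic cells was at 2.59 and 52.8 CPM, from 2 and 32 UMIs, with Col1a1 at 4430 and 16465 CPM. The 6 osteoclast markers summed to 3988 and 1441 CPM in the dendritic class, and the 4 mast cell markers, of which 3 were at 0 in Lipo-PBS, to 343 and 1.65 CPM. The part of free RNA and of these other cells in the values was not tested.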

How the data were processed

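The authors deposited, for 1 Lipo-Clo and 1 Lipo-PBS library, UMI counts per gene and cell from Cell Ranger. The deposited file headers name Cell Ranger 8.0.0, while the submitters' processing notes name Cell Ranger 3.1.0, Seurat 3.1.1 and the builds GRCm39 and mm39. How this affects the counts was not tested. No normalization had been applied.

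From these counts (31053404 UMIs over 9362 barcodes in Lipo-Clo, 30537834 over 9653 in Lipo-PBS), barcodes were dropped where fewer than 200 genes were found or where mitochondrial UMIs passed 20%. Scrublet's own threshold called 1 cell a doublet in each library, so 0.8% of cells per 1000 in the library were removed instead, by descending score (632 in Lipo-Clo, 633 in Lipo-PBS). Cells were scaled to 10000 UMIs, and 2000 variable genes, 30 components, 20 neighbours and Leiden resolution 1 gave clusters (mesenchyme again with 20 components and resolution 0.6), with Python 3.11.15, scanpy 1.11.5, leidenalg 0.10.2, scikit-learn 1.9.0 and scipy 1.17.1. A cluster was named from at least 3 markers that were 2-fold higher in it and found in at least 10% of its cells. A cluster with markers of 3 or more lineages was left unnamed, a limit settled after the clusters were seen. Cells of 1 library are not replicates, so UMIs were summed by class and given as CPM with exact Poisson intervals, shares with Clopper-Pearson intervals and ratios with exact intervals, and no test was run. Subcluster ratios needed at least 20 UMIs. The log2 ratio and its interval were tested on simulated Poisson counts. That simulation does not test the filters, clusters, names or shares, or any spread between cells or animals.

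The genes and lists were chosen with earlier results of these data known. All 10 TGF-β genes are named, with the 3 genes most like each ligand and receptor (among genes with at least 500 UMIs), and, per list, at most the 5 farthest past 1.3-fold in each direction. Some genes that this rule names are not reported here. Alternatives were other cell filters, clusterings, fold limits and count minimums, edgeR 4.0.16 TMM and DESeq2 1.42.0 size factors (R 4.3.3), thinning to 1000 UMIs, means over cells and a common mixture of subclusters. Thinning left out cells with fewer than 1000 UMIs.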

Additional observations from a re-analysis of the deposited data

Results flagged for a closer look

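Smad7 differed between the conditions in opposite directions in a pair of mesenchymal subclusters. In the Dio2 follicle-like cells its log2 ratio of Lipo-Clo over Lipo-PBS was -0.60 (-1.10 to -0.11), from 33.6 CPM (71 UMIs) and 51.0 CPM (72 UMIs). In the unnamed Mmp13 subcluster it was 0.81 (0.11 to 1.55), from 37.8 CPM (53 UMIs) and 21.5 CPM (26 UMIs). The intervals lie on opposite sides of 0, each group is 1 library, and the difference between the subclusters was not tested.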

How the results depend on the processing

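No paired analysis was possible because there was a single library for each condition. In dental mesenchyme 5 of the 10 genes were lower in Lipo-Clo past 1.3-fold. The count was 3 with cells thinned to 1000 UMIs, 2 with the same mixture of subclusters, 1 with a 1.5-fold limit and 0 with a 2-fold limit, and 3 with the multi-lineage cluster counted as mesenchyme, an alternative chosen after the data were seen. It was 4 or 5 with the other settings tried, which include leaving out the subcluster led by B cell genes, also chosen afterwards. No gene was higher past the limit with any of these settings. The share of all genes past the limit was computed only for the main setting, so no such share stands beside the other counts. No mesenchymal log2 ratio changed sign where its interval excluded 0. Tgfbr1 ranged from -0.63 to -0.48, Tgfbr2 from -0.57 to -0.31, Tgfbr3 from -0.74 to -0.23 and Tgfb1 from 0.13 to 0.30. Smad2 ranged from -0.45 to -0.31 and Smad4 from -0.43 to -0.32, and each came within the 1.3-fold limit with some settings. Smad3 and Tgfb3, whose intervals included 0, changed sign with means over cells (0.21 and 0.07) and with thinned cells (0.07 and 0.08). Shares of a gene's UMIs by class moved past their counting interval 42 times and stayed within it 90 times, and CPM moved 12 and stayed 120 times. The cause was not tested. At Leiden resolution 0.5 the blood vessel cells fell into an unnamed cluster with markers of several lineages, so that the 180 cells named endothelium were the lymphatic ones and the endothelial values of that setting are not those of the whole class. Depth limits the small classes most, and nothing here measures the spread between animals.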
